A study of Mus musculus with 9 samples.

Results

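Cytosolic ribosomal protein genes encode the proteins of the large (Rpl, Rplp) and small (Rps, Rpsa) subunits of the ribosome outside the mitochondrion. They were taken from 2 tables of RNA-seq values by gene symbol: an Rpl or Rps name with a number and an optional a, x or l, together with Rplp0, Rplp1, Rplp2 and Rpsa, without kinases and pseudogenes. The rule found 77 genes, the same 77 in both tables, of 11848 gene symbols that the tables share; 45 belong to the large and 32 to the small subunit. Of the protein-coding symbols in the mouse annotation that match the rule, 4 (Rpl3l, Rpl10l, Rpl13 and Rpl39l) were not analysed here.

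The tables come from total RNA of embryonic mouse retina (strain CD-1, age E12.5), when most cells of the retina divide as progenitors and the first retinal ganglion cells form. There were 3 samples in each of 3 groups: KI (genotype Neurog2GFP/Mash1KI), MUT (Neurog2GFP/GFP) and HET (Neurog2GFP/+), so every group carried at least one GFP allele at Neurog2, a proneural transcription factor gene, and none was wild type. Each sample was a pair of GFP-positive optic cups, dissociated but with no cell sort named. The authors deposited a single RPKM value per transcript and group (reads scaled to transcript length and to the number of mapped reads). No value per embryo, no spread between samples and no depth can therefore be given. The only test is the authors' Cuffdiff test of each transcript. Its p-values set the difference between groups against a spread that Cuffdiff models, and do not themselves measure the spread between samples. The labels do not tie the 3 samples of a group to separate litters.

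Most ribosomal proteins are needed in equal number for each ribosome, and their mRNAs are among the most abundant of any growing cell. Most of these mRNAs start with a run of pyrimidines at the cap, the terminal oligopyrimidine tract, through which their translation follows growth signals relayed by mTOR. Dividing progenitors make many ribosomes, and cells that leave the cell cycle usually make fewer.

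Neurog2 was at 36.2 RPKM in MUT and 30.2 RPKM in HET, and at 112 RPKM in KI and 35.5 RPKM in MUT; the tables do not separate its coding part, so these values do not check the genotypes, and KI, MUT and HET stand for the groups so labelled. All 14 genes of the retinal progenitor list were present, with a sum of 3866 RPKM in MUT and 3281 RPKM in HET. Y-linked genes summed to 0.0273 RPKM in MUT and 42.7 RPKM in HET, and to 66.2 RPKM in KI and 0.0268 RPKM in MUT. MUT thus had almost no Y-linked RNA, while HET and KI had some. Xist, the RNA of the inactive X, was higher in MUT than in HET and in KI, with values given below. The sex of the embryos therefore cannot be told apart from the MUT label in either comparison. The sample titles carry the number 311 for KI and 466 for MUT and HET, and whatever this number marks cannot be told apart from the KI label.

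The promoters of the called members below are shown, with that of Rps27l, the only member with a lower value in MUT than in HET. A call sets a transcript against no difference between groups, not against the family. Rpl13a, not called, had a summed log2 ratio of 0.66 in MUT over HET, against 0.52 and 0.51 for the called Rpl26 and Rplp0. Each stretch runs from 60 bases before to 30 bases from the RefSeq start on, read 5′ to 3′ on the gene's strand, with capitals where a short pyrimidine motif matched on the sense strand; the motifs searched were CTTTC, the related motif CTTCC, the shifted motif CTCTT and lastly the motif CCTTT. Positions on GRCm38.p6 (RefSeq) are chr5:115559407-115559496 (+ strand) for Rplp0, chr11:68901506-68901595 (+) for Rpl26, chr7:141447591-141447680 (+) for Rplp2, chr4:152325666-152325755 (+) for Rpl22, chrX:37085193-37085282 (- strand) for Rpl39, chr12:28635924-28636013 (-) for Rps7 and chr9:66946026-66946115 (+) for Rps27l.
Rplp0: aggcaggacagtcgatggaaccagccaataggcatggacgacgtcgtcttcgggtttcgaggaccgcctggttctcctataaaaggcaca
Rpl26: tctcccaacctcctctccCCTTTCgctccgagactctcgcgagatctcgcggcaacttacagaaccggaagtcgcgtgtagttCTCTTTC
Rplp2: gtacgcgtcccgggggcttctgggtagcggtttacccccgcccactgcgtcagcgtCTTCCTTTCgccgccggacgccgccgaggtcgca
Rpl22: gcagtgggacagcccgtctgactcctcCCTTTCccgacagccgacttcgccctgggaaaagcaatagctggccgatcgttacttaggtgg
Rpl39: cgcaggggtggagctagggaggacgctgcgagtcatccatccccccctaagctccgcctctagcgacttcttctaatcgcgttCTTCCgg
Rps7: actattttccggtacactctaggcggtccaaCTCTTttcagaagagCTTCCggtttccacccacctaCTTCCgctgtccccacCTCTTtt
Rps27l: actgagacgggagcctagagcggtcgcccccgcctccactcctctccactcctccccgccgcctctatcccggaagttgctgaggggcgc

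In Rplp2 a run of motifs lies across the annotated start. Rpl26 and Rps7 have matches on both sides of it, Rpl39 only downstream and Rpl22 only upstream within the stretch. Rplp0 and Rps27l have none in the stretch, and that of Rplp0 holds TATAAA downstream of the annotated start. RefSeq starts were not checked against the site where each mRNA begins. A stretch without a match therefore does not show that the mRNA lacks a pyrimidine tract. Rps27a, also called, is named only. Of the 77 members, 56 had a promoter in the RefSeq table. At least one of the 4 pyrimidine motifs, which overlap one another, lay within 10 bases of the start in 35.7% of these 56 and in 11.1% of all 27025 genes with a promoter entry. In the 50 bases after the start, a window chosen after the data were seen, the shares were 73.2% of members and 25.2% of all genes. Over the whole window of 250 bases before to 50 bases after the start and on both strands, CCGGAAG, the core of sites for ETS factors such as GABP, was in 42.9% of members and 9.93% of all genes. GGGCGG, the box bound by Sp1, was in 60.7% and 38.2%, and AAGATGGC, the core of the YY1 site, in 8.93% and 3.19%. CACGTG, the E-box of Myc, was in 10.7% of members and 8.09% of all genes, and TATAAA in 10.7% and 15.7%. A match describes letters in a window and is not a bound site.

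The first comparison, MUT with HET, asks how retinas with GFP on both Neurog2 alleles differ from those with it on one. Of the 77 genes, 76 had higher summed RPKM in MUT than in HET, where 54.7% of all genes were higher and 45.3% lower, and the ratios lay close together around a median of 0.34 on the log2 scale, a 1.26-fold difference. Per transcript, 2 members were called higher at q of 0.05 or less and none lower, where 0.245% of all genes were called higher and 1.09% lower. With p under 0.05, unadjusted, in the authors' deposited table, 35 of 77 members had a higher transcript and none a lower one, where 4.85% of all genes were higher and 6.2% lower. The q of most members thus missed the threshold while the family's values lay on one side. As shares of the summed RPKM of the table, which lowers every log2 ratio by 0.10, 75 of 77 were higher. In total the 77 genes held 21.6% of the summed RPKM of the table in MUT and 18.5% in HET.

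The spread around this shift was small. The members' log2 ratios had an SD of 0.11, and 58 of 77 lay within 0.1 of the median. Over 983 other abundant genes (100 RPKM or more in one of the groups, ratio finite), the median was 0.10 and the SD 0.41. This set is not matched to the members in level: its 988 genes summed to 326851 RPKM in MUT, against 154262 RPKM for the 77 members. Its ratios ran from -4.81 to 3.09. The interquartile width was 0.10 for the members, 0.32 for the other abundant genes and 0.37 for all genes, whose median was 0.03. Members with one listed transcript, 32 in number, had an SD of 0.083.

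**Figure D1:**
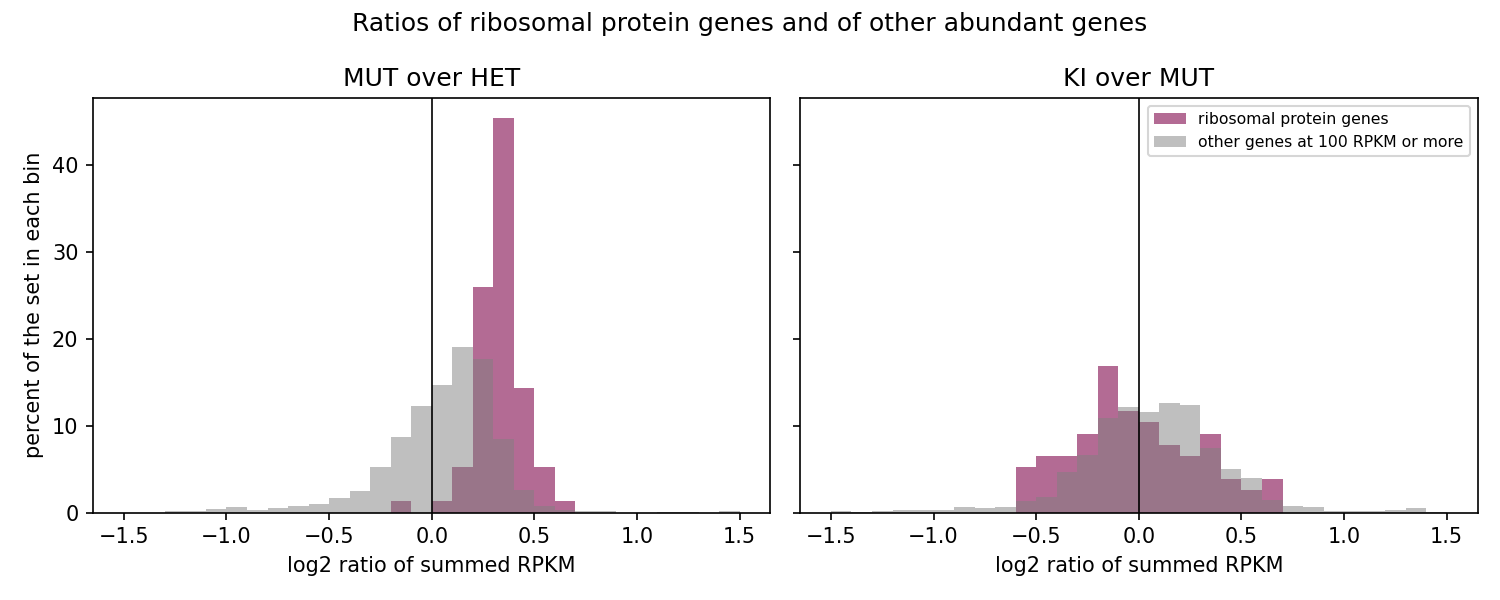
Distribution of log2 ratios of summed RPKM (x axis, bins of 0.1) for the 77 ribosomal protein genes and for other genes at 100 RPKM or more, as percent of each set (y axis), for MUT over HET on the left and KI over MUT on the right. The members form one narrow peak around 0.34 in MUT over HET and spread on both sides of 0 in KI over MUT; ratios beyond the axis are not drawn.

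Rpl26 and Rplp0 were the members called. Rpl26, a large-subunit protein that also binds the Trp53 mRNA, was at 1450 RPKM in MUT and 1013 RPKM in HET and rose by 0.52 on the log2 scale (q = 0.0286 in the authors' deposited table). Rplp0, the base of the P stalk on which elongation factors dock, was at 1142 RPKM in MUT and 802 RPKM in HET. Its main transcript was at 1053 RPKM in MUT and 666 RPKM in HET, a rise of 0.66 (q = 0.0367 in the authors' deposited table). A second Rplp0 transcript was at 89.0 RPKM in MUT and 136 RPKM in HET. Its partners in the stalk, Rplp1 and Rplp2, were at 1493 and 2104 RPKM in MUT and at 1163 and 1666 RPKM in HET, with log2 ratios of 0.36 and 0.34 that did not pass the test.

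Other high summed ratios were those of Rpl13a and Rpl6, at 0.66 and 0.51. Rpl13a, which in human monocytes also joins a complex that silences inflammatory mRNAs, was at 1175 RPKM in MUT and 744 RPKM in HET, summed over 7 transcripts. Rpl6 was at 2337 RPKM in MUT and 1640 RPKM in HET. Neither passed the test.

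At the other end were Rps27l, Rps28, Rpl39 and Rps27a. Rps27l, a close paralog of Rps27 known as a p53 target, was at 151 RPKM in MUT and 167 RPKM in HET, a log2 ratio of -0.14. Rps27 itself, the most abundant member, was at 6413 RPKM in MUT and 5220 RPKM in HET, a ratio of 0.30. Rps28 was at 2362 and Rpl39, a small protein at the exit tunnel, at 1900 RPKM in MUT, against 2293 and 1754 RPKM in HET. Rps27a, made as a fusion to ubiquitin, was at 726 RPKM in MUT and 648 RPKM in HET, a ratio of 0.16. These 4 are the members farthest below the family median, and none was called.

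The median log2 ratio of MUT over HET was 0.33 over 45 large-subunit genes and 0.35 over 32 small-subunit genes, a difference of -0.02 that was not tested. All 45 large-subunit genes and 31 of 32 small-subunit genes were higher in MUT.

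Of the members with a known role outside translation in general, 6 others were described. Rpl5 and Rpl11, which with 5S rRNA bind and inhibit Mdm2 when ribosome assembly fails, were at 2469 and 3371 RPKM in MUT and at 2140 and 2616 RPKM in HET, with ratios of 0.21 and 0.37. Rps19, the gene most often altered in human Diamond-Blackfan anaemia, was at 1294 RPKM in MUT and 939 RPKM in HET. Rpl38, which in mouse is needed for translation of a set of Hox mRNAs, was at 1994 RPKM in MUT and 1643 RPKM in HET, a ratio of 0.28 that came to 0.04 with its most abundant transcript only. Rpl24, altered in the belly spot and tail mouse, was at 2988 RPKM in MUT and 2491 RPKM in HET, and Rpl22, needed for T cell development in mouse, at 955 and 761 RPKM. The smallest and largest ratios among these 6 were those of Rpl5 and Rps19, at 0.21 and 0.46.

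RPKM is scaled to length, but this alone does not make levels of different members comparable. Rps29 in MUT was at 3845 RPKM in one table and at 5709 RPKM in the other, so ranks of level are approximate. Across the family levels ran from 16.3 to 6413 RPKM in MUT, with a median of 1787 RPKM. In HET they ran from 13.4 to 5220 RPKM, with a median of 1420 RPKM. The median over all genes was 13.9 RPKM in each group. After Rps27, the highest in MUT were Rpl41, at 4943 RPKM in MUT and 3788 RPKM in HET, Rpl23a at 4155 and 3378 RPKM, Rps4x at 3898 and 3366 RPKM, and Rps29 at 3845 and 2972 RPKM. The lowest was Rps4l, a paralog of Rps4x, at 16.3 RPKM in MUT and 13.4 RPKM in HET. It was the only member with no protein-coding transcript under its symbol in the annotation used for lengths.

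The second comparison, KI with MUT, asks how retinas with the knock-in allele differ from those with GFP on both Neurog2 alleles. The family had no common shift: 34 members were higher in KI than in MUT and 43 lower, where 49.7% of all genes were higher and 50.3% lower, and the median log2 ratio was -0.02. The ratios of members lay on both sides of 0, between -0.56 and 0.64, and the SD of 0.31 was 2.81 times that of the first comparison. Over 1006 other abundant genes with a finite ratio the SD was also larger, at 0.51 against 0.41 in the first comparison. The interquartile width was 0.47 for the members, 0.41 for the other abundant genes and 0.41 for all genes. Per transcript, 3 members were called higher and 2 lower, where 1.03% of all genes were called higher and 0.634% lower. With p under 0.05, unadjusted, in the authors' deposited table, 12 members had a higher transcript and 19 a lower one, with Rpl10 counted in both, where 8.56% and 6.46% of all genes did. As shares of the summed RPKM, which lowers every log2 ratio by 0.06, 29 were higher and 48 lower. The family held 21.7% of the summed RPKM in KI and 21.9% in MUT.

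**Figure D2:**
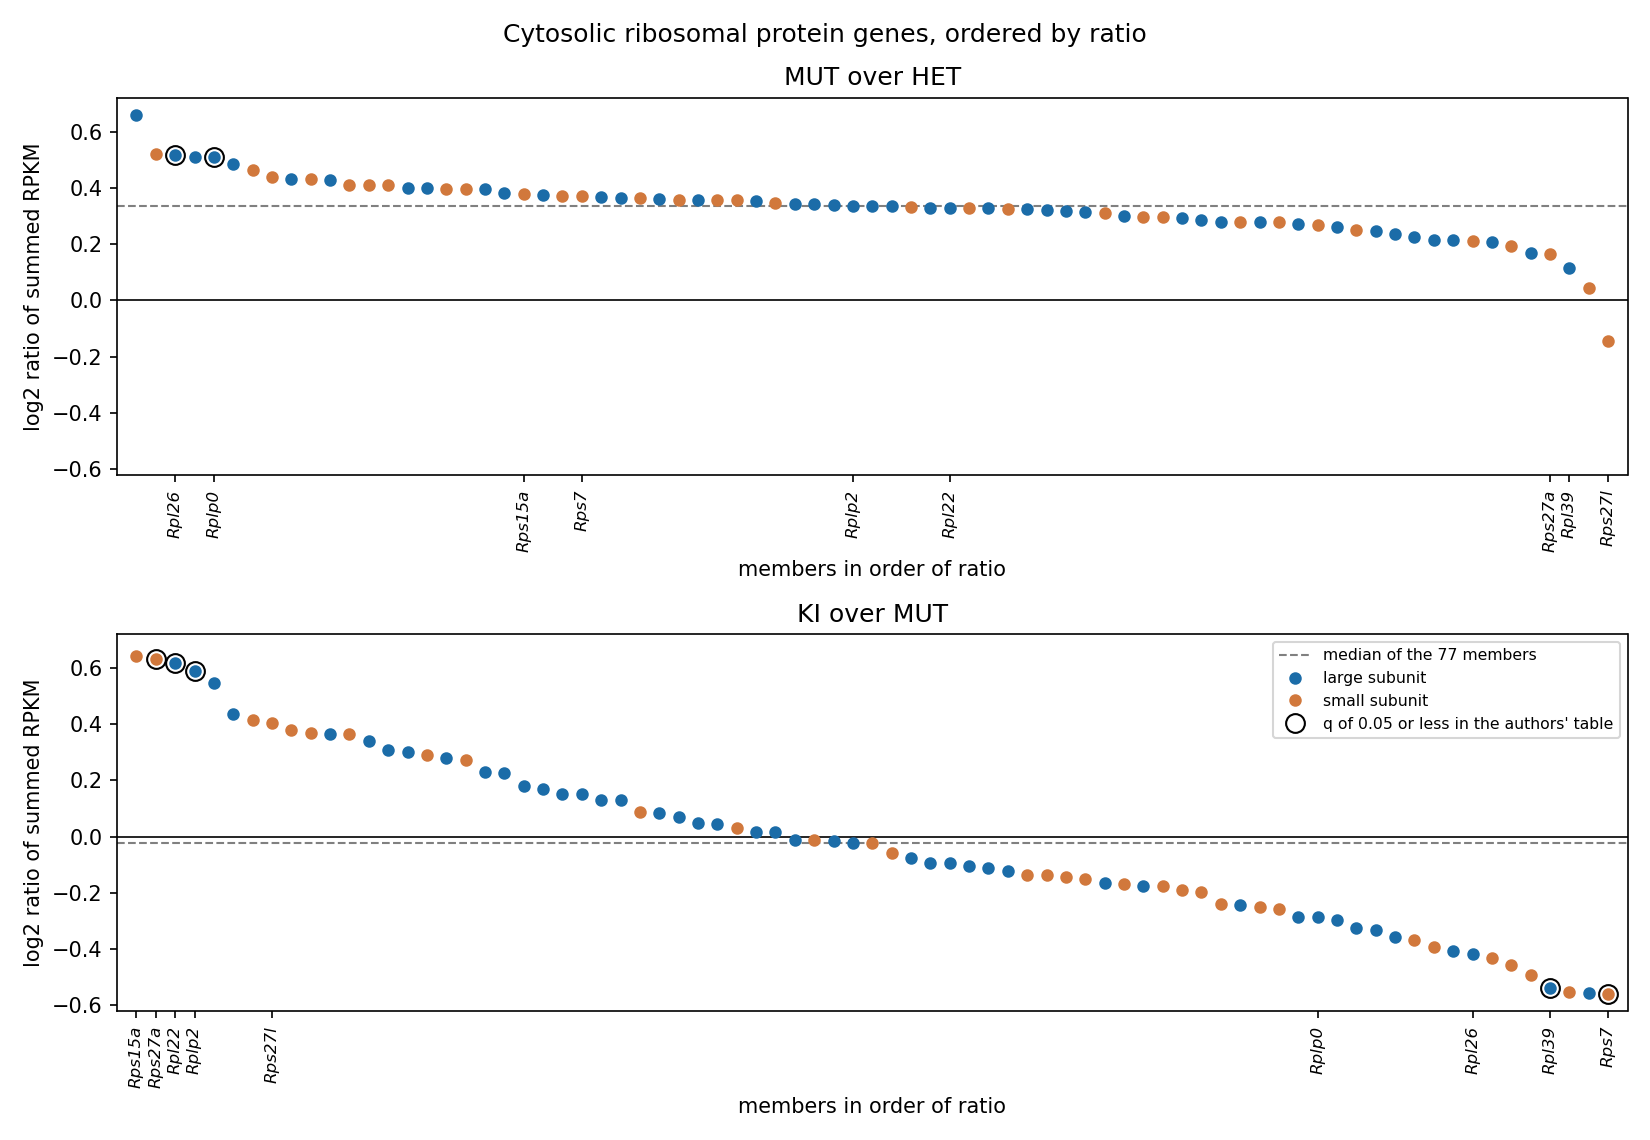
The 77 members ordered by log2 ratio of summed RPKM (y axis), MUT over HET above and KI over MUT below, coloured by subunit, with the family median as a dashed line and a ring around members called at q of 0.05 or less; the called members, Rps27l and Rps15a are labelled on the x axis. In MUT over HET the points form a plateau near 0.34 with Rps27l below 0; in KI over MUT they run from 0.64 (Rps15a) to -0.56 (Rps7).

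The members called higher in KI were Rplp2, Rps27a and Rpl22. Rplp2, which forms the P stalk as a dimer with Rplp1, was at 3107 RPKM in KI and 2064 RPKM in MUT. Its main transcript rose by 0.64 on the log2 scale (q = 0.0104 in the authors' deposited table). Rplp1 was at 2140 RPKM in KI and 1465 RPKM in MUT, a ratio of 0.55, and missed the threshold (q = 0.0506 in the authors' deposited table). Rplp0, the third protein of the stalk, was at 918 RPKM in KI and 1120 RPKM in MUT, a ratio of -0.29, so the stalk proteins Rplp1 and Rplp2 and their base had ratios of opposite sign. The difference between them was not tested.

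Rps27a was at 1103 RPKM in KI and 712 RPKM in MUT, and its main transcript rose by 0.62 (q = 0.0104 in the authors' deposited table). Rpl22 was at 1439 RPKM in KI and 938 RPKM in MUT, and its main transcript rose by 0.65 (q = 0.0413 in the authors' deposited table). The highest summed ratio, 0.64, was that of Rps15a, at 4453 RPKM in KI and 2854 RPKM in MUT, and it did not pass the test. Rpl24 was at 3969 RPKM in KI and 2931 RPKM in MUT and also did not pass.

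The members called lower in KI were Rpl39 and Rps7. Rpl39 was at 1283 RPKM in KI and 1864 RPKM in MUT, and fell by 0.54 (q = 0.0254 in the authors' deposited table). Rps7, a small-subunit protein that also binds Mdm2, was at 545 RPKM in KI and 803 RPKM in MUT, and fell by 0.56 (q = 0.0413 in the authors' deposited table). Rpl12 and Rps12 had ratios of about the same size that missed the threshold, -0.56 and -0.55. Rpl12 was at 860 RPKM in KI and 1265 RPKM in MUT, and Rps12 at 695 RPKM in KI and 1019 RPKM in MUT.

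**Figure D3:**
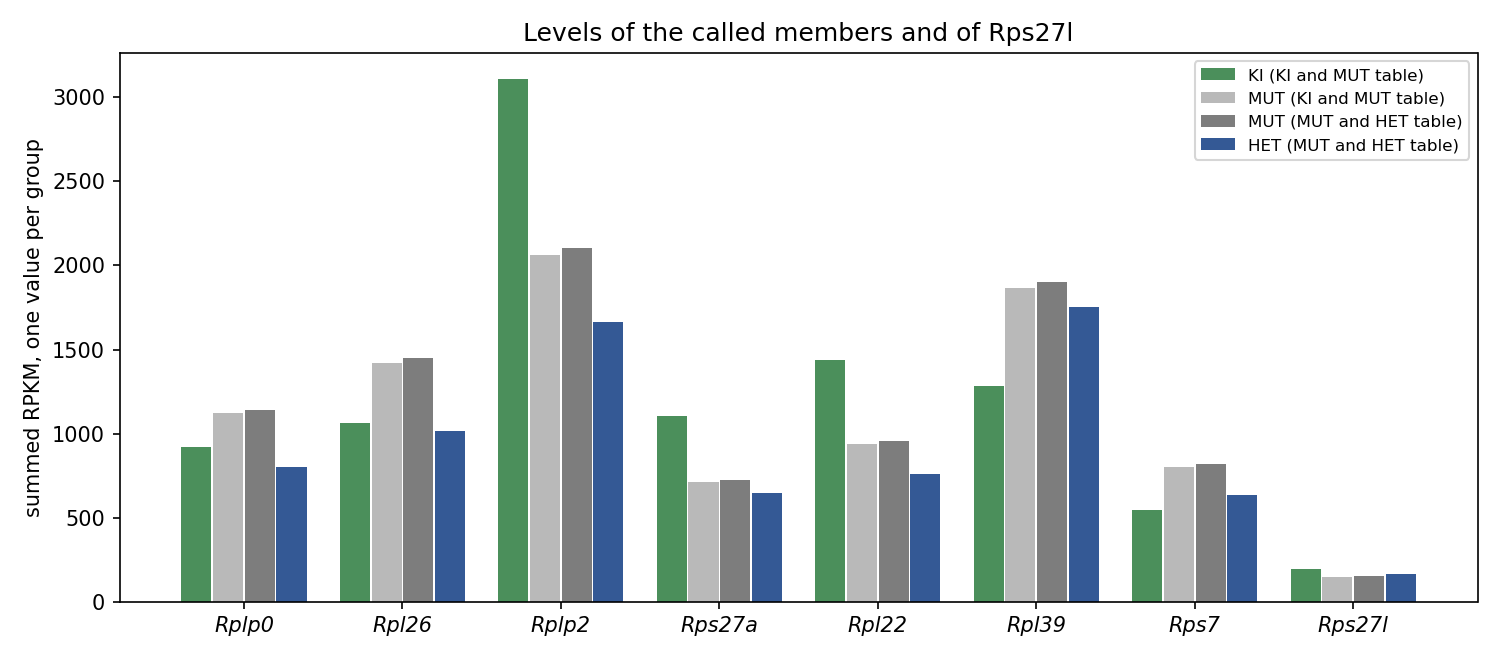
Summed RPKM (y axis, one value per group as deposited, no error available) of the 7 called members and of Rps27l in KI and MUT of one table and in MUT and HET of the other. Rplp2, Rps27a and Rpl22 are highest in KI, and Rpl39 and Rps7 are lowest in KI.

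The median log2 ratio of KI over MUT was 0.02 for the large and -0.14 for the small subunit, a difference of 0.16 that was not tested. It came to 0.07 when only the most abundant transcript of each gene was used. In KI, 23 of 45 large-subunit genes and 11 of 32 small-subunit genes were higher than in MUT.

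Among the same 6 members with other roles, Rpl22 was called higher and Rpl24 was not called, both with the values above. Rpl5 and Rpl11 were at 2453 and 3673 RPKM in KI and at 2423 and 3307 RPKM in MUT, ratios of 0.02 and 0.15. Rps19 was at 902 RPKM in KI and 1269 RPKM in MUT (q = 0.0551 in the authors' deposited table), a ratio of -0.49. Rpl38 was at 1554 RPKM in KI and 1956 RPKM in MUT. Rpl5, Rpl11, Rps19 and Rpl38 were not called. Rps6, the substrate of S6 kinase, named after its value was seen, was at 1300 RPKM in KI and 1785 RPKM in MUT, a ratio of -0.46, and was not called.

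Of the most abundant members in KI, Rps27 was at 8393 RPKM in KI and 6292 RPKM in MUT, and Rps29 at 5826 and 5709 RPKM. Rpl41 was at 5672 RPKM in KI and 4849 RPKM in MUT, and Rpl23a at 5165 and 4076 RPKM. The paralogs Rps27l and Rps4l were at 196 and 20.8 RPKM in KI, against 148 and 16.0 RPKM in MUT. None of these 6 passed the test. Across the 76 members with an annotated transcript, the Spearman correlation of the KI over MUT ratio with the member's level was 0.38, as a description of genes that share the same libraries; level and ratio also share the KI value. In MUT over HET it was -0.21. Over other abundant genes with an annotated transcript the correlation with level was 0.07 in KI over MUT (909 genes). In MUT over HET it was 0.09 over 883 such genes.

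The tables share the MUT samples, so their ratios are not independent and are given side by side. In all, 43 members were higher in MUT than in HET and lower in KI than in MUT, 33 were higher in both, and Rps27l was lower and then higher. With 76 of 77 members higher in the first comparison, this split restates the second. Shares of all genes are not given for this split or for the added ratios below. The MUT values of the 2 tables, which were normalized separately, had a median ratio of 0.981 over members, and 76 of 77 lay within 5% of it. The exception was Rps29, which was at 3845 RPKM with 1 transcript beside HET, and at 5709 RPKM with 2 transcripts beside KI. Adding both log2 ratios of a member gives a value for KI over HET without a test: its median was 0.29, 67 members were above 0 and 10 below, from -0.42 for Rpl39 to 1.02 for Rps15a. Rps15a, Rpl22, Rplp2 and Rplp1 had the highest such values, with Rpl22 at 0.95 and Rplp1 at 0.91.

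Of the 77 members, 4 lie on the X chromosome, and their MUT over HET ratios had a median of 0.22, from 0.12 to 0.34, against 0.34 over the 73 autosomal members. Rps4x, whose second copy on the human Y is absent in mouse, was at 3898 RPKM in MUT and 3366 RPKM in HET, and at 3351 RPKM in KI and 3824 RPKM in MUT. Rpl10, a late joiner of the large subunit, was at 2881 RPKM in MUT and 2466 RPKM in HET, and Rpl36a at 1938 and 1531 RPKM. In KI over MUT the X-linked median was -0.13, from Rpl39 at -0.54 to Rpl36a at 0.13, and the autosomal median was -0.02. Xist, the RNA of the inactive X, was at 505 RPKM in MUT and 184 RPKM in HET, and at 174 RPKM in KI and 496 RPKM in MUT; its part in these values was not tested.

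Single transcripts scattered far more than gene sums. The 77 members had 163 transcripts in the MUT and HET table and 160 in the KI and MUT table, and 6 in each were listed at 0 in one group. Log2 ratios of single transcripts with a finite value had SDs of 1.35 and 1.27. These SDs include transcripts close to 0 in MUT. One of Rps4l had a ratio of -10.83 in MUT over HET, and one of Rps10 a ratio of 7.80 in KI over MUT. The SDs therefore do not give the scatter of a typical member transcript. Transcripts of Rpl10 differed in direction. Its main transcript was at 1772 RPKM in KI and 2770 RPKM in MUT (q = 0.0636 in the authors' deposited table). Another was at 574 RPKM in KI and listed at 0 in MUT. The sum of Rpl10 was 2684 RPKM in KI and 2827 RPKM in MUT. Rpl10a, another large-subunit gene and no copy of Rpl10, had one transcript, at 2507 RPKM in KI and 2967 RPKM in MUT. Rpl3, which with one transcript has no such ambiguity, was at 1322 RPKM in KI and 1333 RPKM in MUT, and at 1359 RPKM in MUT and 1083 RPKM in HET.

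Ribosomal protein genes have many processed pseudogenes, and reads may be split among copies; the tables list 4 pseudogenes of members, which summed to 27.1 RPKM in MUT and 12.7 RPKM in HET, and to 29.2 RPKM in KI and 26.6 RPKM in MUT. Several members host small nucleolar RNAs, guides of rRNA modification, in their introns. Rpl13a hosts Snord32a and Snord34, listed at 19.5 and 34.6 RPKM in MUT and at 77.8 and 144 RPKM in HET, and at 118 and 132 RPKM in KI and 19.1 and 34.0 RPKM in MUT. Snora65 in the locus of Rpl12 was at 404 RPKM in MUT and 375 RPKM in HET. These RNAs are named after their values were seen, and kits for mRNA capture them poorly.

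Other genes of the translation machinery were set beside the family. Of 6 family genes outside the rule, all 6 were higher in MUT than in HET with a median log2 ratio of 0.26; Rps3a1 was at 2247 RPKM in MUT and 1752 RPKM in HET. Of 40 translation factors and partners, 28 were higher with a median of 0.21, among them the elongation factor Eef1a1, at 6220 RPKM in MUT and 4605 RPKM in HET, and Tpt1 at 3024 and 2451 RPKM. Of 77 genes of the mitochondrial ribosome, a set of equal size that makes another ribosome, 66 were higher, with a median of 0.20 and an SD of 0.15; the most abundant, Mrps33, was at 269 RPKM in MUT and 268 RPKM in HET. Of 48 genes of ribosome biogenesis, which make and fold rRNA in the nucleolus, 35 were higher, with a median of 0.14; Npm1 was at 1829 RPKM in MUT and 1634 RPKM in HET, and Ncl at 349 and 268 RPKM. Cuffdiff called none of the genes of these 4 lists. With p under 0.05, unadjusted, in the authors' deposited table, the numbers higher were 0, 2, 4 and 4, with none lower. Of all genes, 4.85% were higher and 6.2% lower at this p, and 0.245% were called higher and 1.09% lower.

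In KI over MUT the same 4 lists had medians of 0.03, 0.12, -0.02 and -0.00, again with none called by Cuffdiff. With p under 0.05, unadjusted, in the authors' deposited table, 1, 9, 4 and 2 of their genes were higher and 0, 1, 5 and 4 lower. Of all genes, 8.56% were higher and 6.46% lower at this p, and 1.03% were called higher and 0.634% lower. Eef1a1 was at 6602 RPKM in KI and 6102 RPKM in MUT. The mitochondrial ribosome had an SD of 0.22 and ribosome biogenesis one of 0.20, against 0.31 for the cytosolic family. These SDs describe the lists and were not tested against each other. List medians above 0 by less than the shifts of 0.10 and 0.06 given earlier change sign when values are taken as shares of the summed RPKM.

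**Figure D4:**
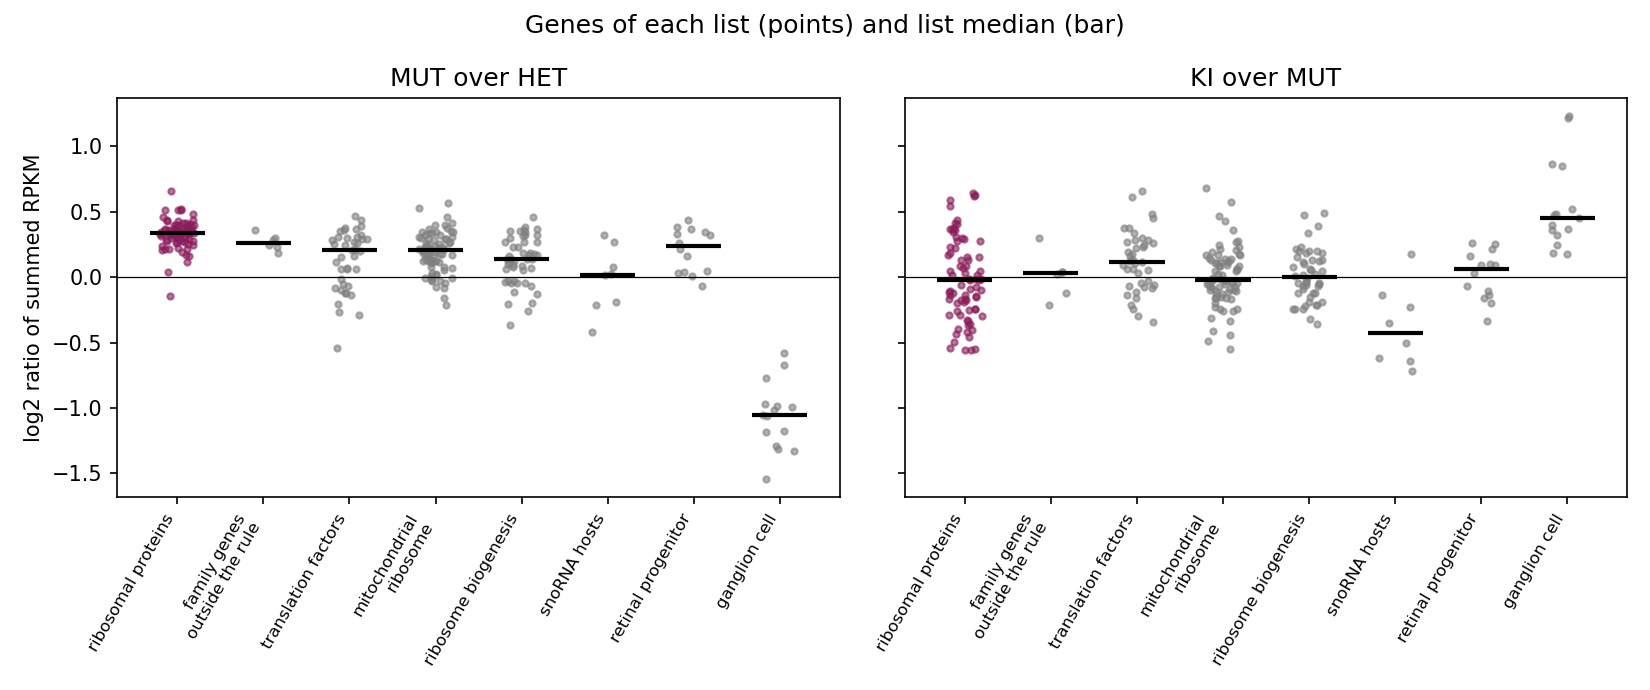
Log2 ratios of summed RPKM (y axis) of single genes (points) with the median of each list (bar), MUT over HET on the left and KI over MUT on the right. The ribosomal protein genes have a median of 0.34 and then of -0.02, the ganglion cell genes of -1.05 and then of 0.45; genes without a finite ratio are not drawn.

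Noncoding host genes of small nucleolar RNAs, which like the family start with a pyrimidine tract, had a median of 0.02 over 8 genes in MUT over HET, with Gas5 at 1213 RPKM in MUT and 1381 RPKM in HET and none called or at an unadjusted p under 0.05 by Cuffdiff. In KI over MUT their median was -0.43, 7 of 8 were lower, 4 of them with p under 0.05, unadjusted, in the authors' deposited table, and Snhg5 fell, at 177 RPKM in KI and 292 RPKM in MUT (q = 0.0182 in the authors' deposited table). Among 21 regulators of ribosomal protein synthesis, including Mtor and Myc, Cuffdiff called none in either comparison, with medians of 0.06 and -0.06, and with p under 0.05, unadjusted, in the authors' deposited table none differed in the first and 1 was higher and 1 lower in the second. The most abundant, Eif4ebp2, was at 107 RPKM in MUT and 115 RPKM in HET. Of the p53 list, 9 genes in the first comparison (median -0.07) and 7 in the second (median 0.18), none was called by Cuffdiff, and at an unadjusted p under 0.05 there were none and 1 higher in the authors' deposited table; Trp53 was at 127 RPKM in MUT and 108 RPKM in HET, and Mdm2 at 59.8 and 62.1 RPKM.

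Marker genes of other cell types differed with the groups. In MUT, 11 of 15 ganglion cell genes were called lower than in HET and none higher, and their sum was 516 RPKM in MUT and 1058 RPKM in HET. Retinal progenitor genes had a median of 0.24, with 13 of 14 higher and none called by Cuffdiff; with p under 0.05, unadjusted, in the authors' deposited table, 3 were higher. In KI over MUT the progenitor median was 0.06, with 8 of 14 higher and none called by Cuffdiff; 1 was lower with p under 0.05, unadjusted, in the authors' deposited table. In these bulk samples fewer cells of a type and less RNA per cell cannot be told apart. In KI, 6 of 10 pigment epithelium genes, 3 of 12 lens genes, 2 of 7 blood genes, 2 of 6 periocular mesenchyme genes and 2 of 15 ganglion cell genes were called higher than in MUT, none lower. These lists summed in that order to 97.4, 164, 131, 33.4 and 691 RPKM in KI and to 21.5, 51.9, 35.1, 19.4 and 506 RPKM in MUT, with Foxe3 of the lens list at 0 in MUT. In MUT over HET Cuffdiff called none of the pigment epithelium, lens, blood and mesenchyme genes listed there (5, 9, 5 and 3), and with p under 0.05, unadjusted, in the authors' deposited table, 4, 1, 1 and 0 were higher and 1, 1, 0 and 1 lower. Their sums were 19.8, 50.4, 34.8 and 18.1 RPKM in MUT and 17.0, 77.5, 30.8 and 19.5 RPKM in HET. Of all genes, 0.245% were called higher and 1.09% lower in MUT over HET, and 1.03% and 0.634% in KI over MUT. At an unadjusted p under 0.05 by Cuffdiff the shares were 4.85% and 6.2%, and 8.56% and 6.46%. The part of these cell types in the ribosomal protein values was not tested.

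Base composition was looked at because it can move with library quality. Over 883 other abundant genes with an annotated transcript, the MUT over HET ratio had a Spearman correlation of 0.34 with GC content and of -0.25 with transcript length; over 76 members the values were 0.05 and 0.22. Members' annotated transcripts had a median length of 882 bases and a median GC content of 51.7%, against 2165 bases and 49.3% for those genes. In KI over MUT the correlations over members were -0.12 with GC and -0.02 with length. Genes within these libraries are not independent, and the part of composition or length in the family's shift was not tested.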

How the data were processed

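Per the labels' protocols, RNA of dissected optic cups was purified on RNeasy Micro columns and made into TruSeq RNA libraries. Per the submitters' processing notes, reads went through Bowtie2, Cufflinks and Cuffdiff on mm10; no source used here gives versions or strand settings. The authors deposited 2 tables with an RPKM value per transcript and group, per the file headers, and a p-value and q-value per transcript. The deposited q-values equal a Benjamini-Hochberg adjustment over the 27311 and 26586 rows to within 5.2e-07 and 5.26e-07.

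RPKM was summed over a gene's transcripts by symbol, without a pseudocount, and log2 ratios were taken within a table. A gene was called if any transcript had q of 0.05 or less. No test over samples was possible. Rows with a spreadsheet date or no symbol were left out of gene counts. Transcript length and GC came from GENCODE M21 (the longest principal protein-coding transcript) and promoters from RefSeq. The sums and the adjustment were tested on simulated data. Work was done in Python 3.11.15 with pandas 2.3.3.

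The 77 members and the lists were chosen with earlier results of these data known. Named members are those called, the 5 most abundant, the 4 highest and lowest ratios per comparison, X-linked members, paralogs and members with known other roles. Some items the rule names are not reported here.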

Additional observations from a re-analysis of the deposited data

How the results depend on the processing

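The number of members called in MUT over HET was 2 and came to 35 at an unadjusted p under 0.05; it stayed at 2 with q of 0.10 or less, with the most abundant transcript only, and with transcripts under 10 RPKM left out. In KI over MUT it was 5, and came to 10 with q of 0.10 or less. It also came to 10 when q was recomputed over transcripts at 10 RPKM or more, and to 30 at an unadjusted p under 0.05. Of all genes, 0.245% were called higher and 1.09% lower in MUT over HET, and 1.03% and 0.634% in KI over MUT. At an unadjusted p under 0.05 by Cuffdiff these shares were 4.85% and 6.2%, and 8.56% and 6.46%. No share of all genes is given at the other settings, so their counts are not read as particular to the members. The median of 0.34 in MUT over HET ran from 0.23, as a share of the summed RPKM of the table, to 0.34, and that of KI over MUT from -0.09 (members with one transcript) to -0.02. Of 116 recomputed ratios of single named members, 5 moved by more than the SD of the family, all with the most abundant transcript, and no called value changed sign. With that transcript Rpl38 was at 0.04, Rps28 at 0.19 and Rplp0 at 0.66 in MUT over HET, and Rpl10 at -0.65 and Rps28 at 0.31 in KI over MUT. No paired analysis was possible because the tables hold one value per group, and for the same reason no replicate could be left out. The depth is unknown.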
